A study of Homo sapiens with 12 samples.

Results

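The comparison described here is that of WM-266-4 cells transfected with gamma-secretase-resistant TYRO3 (ΔGS) against the same cells transfected with a GFP control plasmid. WM-266-4, established from a human melanoma, carried in both groups a stable lentiviral knock-down of TYRO3, so that the control cells were depleted of the receptor and were not untreated melanoma cells. The ΔGS libraries came from cells transfected with the plasmid pEZY-myc-his TYRO3 ΔGS, which encodes the receptor with the residue change I449A, and the control libraries from cells transfected with pEZY-myc-his GFP. The cells were selected with puromycin for the shRNA and were starved of serum overnight before lysis, and the plasmid was introduced by transfection reagent, so that cells that took up no plasmid can be part of each library. The methods of the study speak of a control vector where the sample labels name GFP. Members were chosen by library title and numbered 6 of the 12 libraries of the series, with 1 ΔGS and 1 GFP library in each of 3 experiments. The remaining 6 libraries hold wild-type (WT) TYRO3 and ADAM-resistant (ΔADAM) TYRO3, 3 each, and were used in the same model and for the comparison between the variants. Nothing in the labels says that the 3 experiments started from separate cultures, so the p-values measure the spread between these libraries only. That spread is the part left after the term for the experiment in the model, estimated over all 12 libraries.

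TYRO3 is a receptor tyrosine kinase of the TAM family, which also holds AXL and MERTK and which binds the ligands GAS6 and protein S. In melanoma it has been studied for its effects on survival and on the melanocyte program. Like several other receptors it can be cut in sequence, first by an ADAM sheddase outside the membrane and then by gamma-secretase inside it, which frees the intracellular domain (ICD). The ΔGS variant can still be expressed as a full-length receptor and shed by ADAM proteases, and it resists the second cut. The study describes its cleavage-resistant variants as making less of the ICD, not as making none. The comparison of ΔGS with the control thus asks which transcripts change with a TYRO3 that releases less ICD than the cleavable receptor. Among the gene groups described below, interferon-stimulated genes are the antiviral effectors switched on by type I and III interferons. The amino acid response is the program of amino acid synthesis and transport genes driven by ATF4. Cholesterol and fatty acid synthesis genes are driven by the SREBP factors, and the melanocyte program by MITF.

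RNA abundance was measured by RNA sequencing. The deposited estimated counts were summed per gene, and of 35579 genes, 15098 had enough counts to be tested. Levels are given as CPM, the counts of a gene relative to the scaled total of its library, always in the order of experiments 1, 2 and 3. The GFP libraries held between 4008293 and 38184838 counts, a 9.53-fold range with the lowest in experiment 1, and the ΔGS libraries between 23486100 and 25155512. In the shallow GFP library of experiment 1 a single count is worth 0.263 CPM. Of the markers of the melanocytic lineage, PMEL was between 755 and 1354 CPM and SOX10 was between 346 and 604 CPM over the 6 libraries, while MLANA, TYR and TYRP1 were low (at most 24.6, 17.5 and 2.32 CPM). Of the 12 immune cell markers, 2 were at 0 in all 6 libraries and 9 were under 1 CPM in each, and the summed level of the list was 33.9 to 35.9 CPM with GFP and 38.2 to 39.0 CPM with ΔGS, nearly all of it CD68. Of 10 fibroblast and endothelial markers, 0 were at 0 in all 6 libraries and 4 were under 1 CPM throughout, with sums of 79.8 to 100 CPM with GFP and 60.3 to 96.3 CPM with ΔGS. Of 8 epithelial markers, 1 was at 0 and 4 were under 1 CPM throughout, with sums of 136 to 161 CPM with GFP and 190 to 218 CPM with ΔGS, mostly KRT18.

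The transfected gene separated the groups in each experiment. TYRO3 (ENSG00000092445.11, chr15:41557675-41583586 of GRCh38) was at 53.1, 47.3 and 56.6 CPM in the GFP libraries and at 3694, 1436 and 1648 CPM in the ΔGS libraries. The groups did not overlap, and the ΔGS library of experiment 1 stood above the other two, 2.57-fold over the lowest. The fold between the libraries of an experiment was 69.5, 30.4 and 29.1. In the quasi-likelihood test of edgeR, with p-values adjusted over all genes by Benjamini-Hochberg, the log2 fold change was 5.21 (standard error 0.27, adjusted p = 1.35e-05). The counts do not separate the plasmid-borne from the endogenous transcript, and in bulk libraries more cells with the plasmid cannot be told apart from more TYRO3 RNA per cell, here and in every result that follows.

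The other TAM receptors moved in opposite directions. AXL, the family member tied to the invasive melanoma state, had 86.5, 68.8 and 55.1 CPM with GFP and 169, 113 and 90.9 CPM with ΔGS. All 3 ΔGS libraries lay above all 3 GFP libraries, and AXL rose with a log2 fold change of 0.78 (standard error 0.15, adjusted p = 0.0162, edgeR). MERTK, the family member best known for the uptake of dying cells, had 19.5, 18.8 and 22.0 CPM with GFP and 8.69, 10.9 and 12.3 CPM with ΔGS. Here the ΔGS libraries lay below the GFP libraries, with a log2 fold change of -0.88 (standard error 0.20, adjusted p = 0.0248, edgeR). The call for AXL was lost without the GFP library of experiment 1 or the ΔGS library of experiment 2 (log2 fold changes 0.69 and 0.79), and that for MERTK without any single library other than the GFP library of experiment 2 (-0.96 to -0.68). The ligand GAS6 was low, at 1.31, 3.48 and 2.02 CPM with GFP and 6.46, 4.64 and 3.45 CPM with ΔGS, and its groups overlapped (log2 fold change 0.82, adjusted p = 0.0917, edgeR). PROS1, which encodes protein S, was between 57.1 and 66.3 CPM in the 6 libraries. None of the cleavage enzymes was called. ADAM10 and ADAM17, the sheddases, had log2 fold changes of -0.18 and 0.17, and the gamma-secretase subunits PSEN2, NCSTN, APH1A, APH1B and PSENEN lay between -0.09 and 0.21. Of the 13 genes of this list, 2 were called higher (15.4%), the transfected TYRO3 itself and AXL, and 1 lower (7.69%). Over all genes tested, 2.81% were called higher and 1.88% lower.

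**Figure D1:**
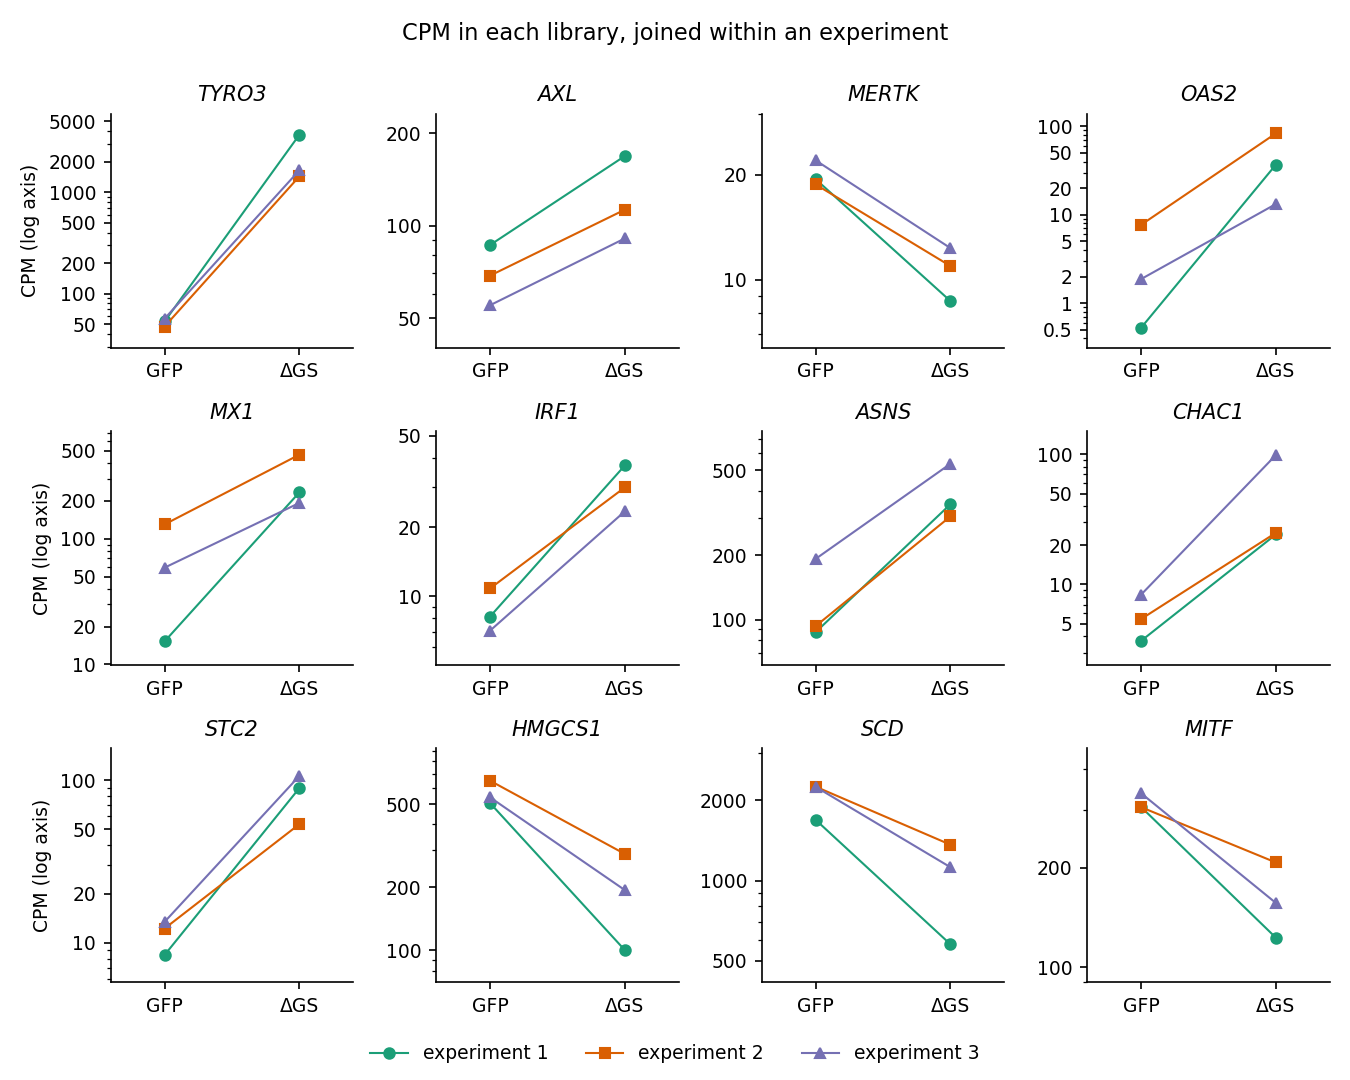
Levels of 12 genes in the 3 GFP and the 3 ΔGS libraries, on log axes of CPM that differ between panels, with lines joining the libraries of 1 experiment. TYRO3, OAS2, MX1, IRF1, ASNS, CHAC1 and STC2 were higher with ΔGS in each experiment, as was AXL, and MERTK, HMGCS1, SCD and MITF were lower in each.

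Over all genes, 424 were higher with ΔGS TYRO3 (2.81% of those tested) and 284 were lower (1.88%), where a call required both a change of more than 1.5-fold and an adjusted p no higher than 0.05 (edgeR). The median log2 fold change of all genes tested was 0.01. Of the genes called higher, 407 were protein coding, 365 had all 3 ΔGS libraries above all 3 GFP libraries, 211 changed by over 2-fold and 46 by over 4-fold. Of the genes called lower, 275 were protein coding, 246 did not overlap between the groups, 89 changed by over 2-fold and 5 by over 4-fold. The direction was the same in the 3 experiments for all 424 higher genes and for 283 of the 284 lower genes. The calls came from these same libraries in a fit by experiment, so separation and shared direction follow in part from the selection. Such counts describe the called genes, here and in the lists below, without a share over all tested genes beside them. The size differed between experiments, with median log2 differences of 1.20, 0.76 and 0.90 for the higher genes and -0.98, -0.57 and -0.89 for the lower genes. The number of calls rested on the pairing of libraries by experiment, which the model enters as a term for the experiment number: without that replicate block, 4 genes were called higher (TYRO3, ASS1, H1F0 and CCPG1) and 0 lower by edgeR, with 2312 at an unadjusted p under 0.05, so that of the members of all gene lists below only TYRO3 was called. The methods of the study treat experiment 1 as a batch apart from experiments 2 and 3. With that batch as the term in place of the experiment number, 42 genes were called higher and 27 lower (edgeR). Without the GFP library of experiment 1, the shallow one, 206 genes were called higher and 63 lower, without that of experiment 3 245 and 163, and without the ΔGS library of experiment 1, 2 or 3, 278, 212 and 326 higher and 138, 111 and 144 lower.

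**Figure D2:**
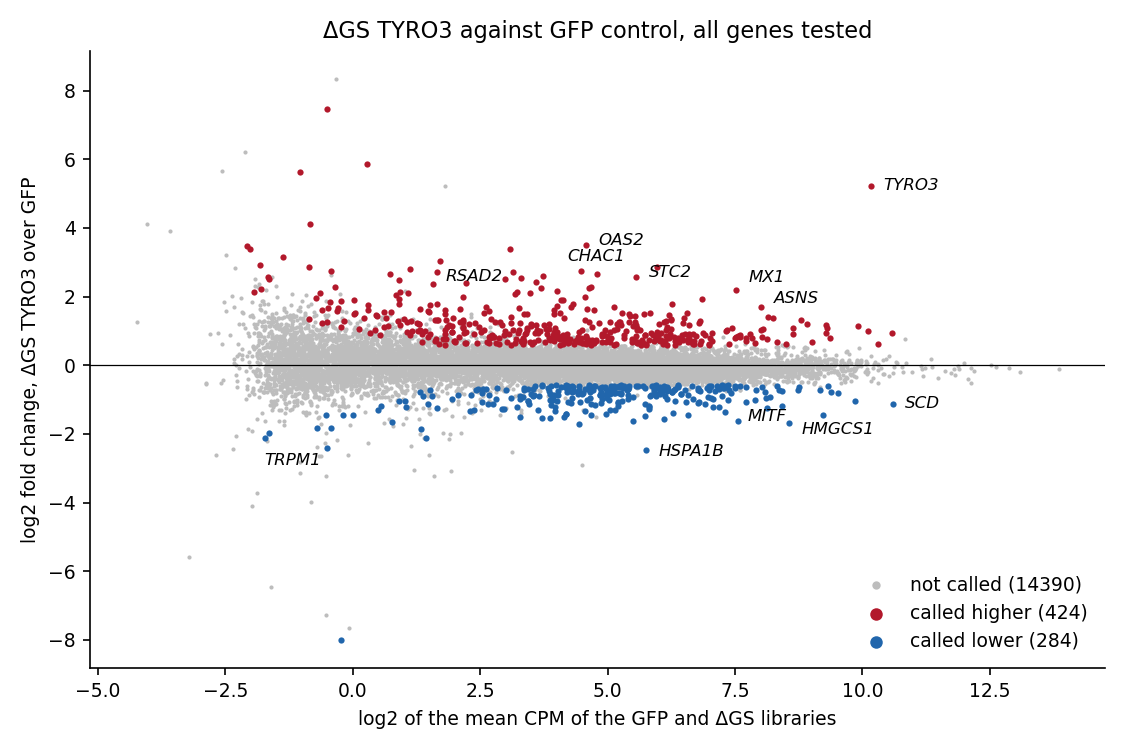
Each point is 1 of the 15098 genes tested, with its mean level (log2 of the CPM averaged over the GFP and ΔGS group means) across and the log2 fold change of ΔGS TYRO3 over GFP upward. The 424 genes called higher are red and the 284 called lower are blue, and the fitted values past 4 in either direction, other than that of TYRO3, belong to genes that averaged under 1 CPM in at least 1 group.

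Most of the genes with the largest increase came from the interferon response and the amino acid response. Among the 15 protein-coding genes with the largest increase (mean of at least 5 CPM in the higher group, and no overlap), 9 belonged to the interferon-stimulated list and 3 to the amino acid response. The interferon genes were OAS2, OAS1 and OAS3, IFI44L, IFI27, RSAD2, XAF1, USP18 and CXCL10, with log2 fold changes from 2.51 to 3.51. The amino acid genes were CHAC1 (2.67), STC2 (2.56) and JDP2 (2.43). TYRO3 itself, NNMT (nicotinamide N-methyltransferase, 2.40) and ANKFN1 (2.37) completed the set. Among the 15 with the largest decrease, only HMGCS1 and CAPN3 belonged to the lipid and melanocyte lists. The others included the receptor phosphatase PTPRZ1 (-1.70), the transcription factor SOX5 (-1.62), the adhesion molecules CEACAM1 (-1.62) and IGSF11 (-1.54), the ATP-gated channel P2RX7 (-1.53), the histone demethylase KDM1B (-1.496), IGFBP5 (-1.44), SESN3 (-1.44) and the ganglioside GD3 synthase ST8SIA1 (-1.43), and also ZNF114 (-1.57) and FGFBP3 (-1.498). The values of HSPA1B (-2.46) and NME1-NME2 (-1.48) are uncertain, because the first shares nearly all its sequence with HSPA1A and the second is a read-through of NME1 and NME2. HSPA1A and both single genes were not called, with log2 fold changes of -0.62, 0.04 and 0.06. In all, 136 of the higher and 46 of the lower genes were in at least 1 of the 24 gene lists, and 288 and 238 were in none.

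Among the gene lists, which were chosen with earlier results of these data known, interferon-stimulated genes formed the largest group of increased genes. Of the 58 members tested, 48 were called higher, the other 10 were not called, and the fitted log2 fold change was above 0 for all 58. The median was 1.28 (quartiles 0.81 and 2.16), against 0.01 over all genes tested. The summed level of the list was 2217, 3720 and 2875 CPM with GFP and 5160, 7874 and 4516 CPM with ΔGS. The groups did not overlap, and the control itself varied, with 44 of the 58 members lowest in the GFP library of experiment 1 and 49 highest in that of experiment 2. The median log2 difference was 1.60, 1.34 and 0.89 in experiments 1, 2 and 3. Between 41 and 49 members were called when any 1 of the 6 libraries was left out, 32 in experiments 2 and 3 alone, and 1 when the term for the experiment only set experiment 1 against the others.

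The OAS enzymes, which sense double-stranded RNA and activate RNase L, changed most. OAS2 (ENSG00000111335.12, chr12:112978395-113011723) was measured at 0.526, 7.68 and 1.87 CPM with GFP and at 36.8, 83.2 and 13.2 CPM with ΔGS. The lowest ΔGS library lay above the highest GFP library, and the log2 fold change was 3.51 (standard error 0.26, adjusted p = 0.000216, edgeR). OAS1 had 0, 2.94 and 0.859 CPM with GFP and 12.5, 27.8 and 6.69 CPM with ΔGS. The antiviral GTPase MX1 rose from 15.2, 130 and 58.9 CPM to 234, 467 and 193 CPM (log2 fold change 2.18, standard error 0.33, adjusted p = 0.00604, edgeR), without overlap. Its paralog MX2 was not called, at 56.3, 66.5 and 70.7 CPM with GFP and 72.6, 76.7 and 66.6 CPM with ΔGS, values that overlapped. The IFIT proteins bind viral RNA and block its translation, and IFIT1, IFIT2, IFIT3 and IFIT5 were called higher with log2 fold changes of 1.93, 1.26, 0.89 and 1.42. ISG15, a ubiquitin-like modifier, had 26.6, 60.6 and 42.2 CPM with GFP and 85.3, 134 and 105 CPM with ΔGS (log2 fold change 1.33, standard error 0.25, adjusted p = 0.0141, edgeR). The enzymes that attach and remove it, UBE2L6 (1.90) and USP18 (2.54), were called higher as well, and HERC5, its ligase, was not (0.43). The chemokines CXCL10 and CXCL11, which draw T cells through CXCR3, had log2 fold changes of 2.51 and 2.14. The transcription factor genes STAT2 (0.67) and IRF9 (0.81) of the interferon pathway were called higher, and so were the RNA sensors DDX58 (1.16), IFIH1 (0.73) and DHX58 (0.79). IRF7, at most 5.29 CPM, was not called (2.17, standard error 0.70, adjusted p = 0.0788, edgeR).

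The promoters of these genes were searched for GAAANNGAA, the core of the interferon-stimulated response element, on both strands of the 250 bases before and the 50 bases after each RefSeq start site (GRCh38.p14). Matches can overlap each other. The letters occurred in the promoter of 33 of the 46 tested list members with a promoter in the table (71.7%), against 8.87% of the 10989 tested genes with a promoter. They occurred in 21.8% of the genes called higher and 12.7% of those called lower. A match is a description of the sequence and no evidence of binding. The following 30-base stretches before the start site are shown as examples of the match in called members of the list, with log2 fold changes from 1.33 (ISG15) to 2.72 (IFI27), each read 5′ to 3′ on the strand of the gene with the match in capitals (on the opposite strand where it reads as TTC and TTTC).
ISG15: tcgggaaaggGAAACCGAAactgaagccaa
IFIT1: actttcccctTTCGGTTTCcctaggtttcc
RSAD2: agcgggaaacGAAAGCGAAgcgttgcgggg
IFI6: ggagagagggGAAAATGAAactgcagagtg
IFI27: tgtctgcagtTTCGGTTTCctggaaaatga
CXCL10: tcatgttttgGAAAGTGAAacctaattcac
They lie on the plus strand at chr1:1013380-1013409 (ISG15), chr10:89392511-89392540 (IFIT1), chr2:6865796-6865825 (RSAD2) and chr14:94110619-94110648 (IFI27), and on the minus strand at chr1:27672288-27672317 (IFI6) and chr4:76023699-76023728 (CXCL10). Their first matched base is 107, 102, 79, 107, 115 and 221 bases before the start site in the order ISG15, IFIT1, RSAD2, IFI27, IFI6 and CXCL10. RSAD2, an enzyme that makes a chain-terminating nucleotide, rose from 1.05, 4.04 and 1.47 CPM to 13.1, 27.3 and 5.86 CPM (log2 fold change 2.71, standard error 0.25, adjusted p = 0.000556, edgeR). IFI6, a mitochondrial antiviral protein, rose from 7.89, 64.0 and 31.6 CPM to 97.5, 173 and 87.9 CPM (log2 fold change 1.79). Neither gene overlapped between the groups.

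Upstream of these genes the changes were less uniform. Of 36 tested members of the list of interferon, receptor and NF-κB signaling genes, 14 were called higher and the other 22 were not called, with a median of 0.59. The interferons themselves were barely detected: IFNB1 was at 0, 0.162 and 0.202 CPM with GFP and 0.262, 0.794 and 0.306 CPM with ΔGS (adjusted p = 0.0957, edgeR), IFNL1 was at most 0.317 CPM, and IFNA1 was at 0 in all 6 libraries. The receptor and kinase genes IFNAR1, IFNAR2, JAK1 and TYK2 were not called, with log2 fold changes between -0.14 and 0.13. IRF1, a transcription factor induced by interferons and NF-κB, rose from 8.15, 10.8 and 7.08 CPM to 37.1, 29.8 and 23.4 CPM (log2 fold change 1.71, standard error 0.13, adjusted p = 0.000228, edgeR). The endosomal RNA sensor TLR3 was called higher (1.69). The cytokines IL6 (1.99), IL1B (1.497) and IL1A (1.54) and the neutrophil chemokine CXCL8 (1.69) rose, as did NFKB2 (0.68), RELB (0.77) and the inhibitor NFKBIA (0.69), whereas NFKB1 (-0.18), RELA (0.16) and TNFAIP3 (-0.01) were not called. IL6 went from 1.05, 1.48 and 1.47 CPM to 13.1, 4.29 and 5.33 CPM, with the highest level in experiment 1 and no overlap.

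Genes of antigen presentation changed in part. Of 21 tested members, 7 were called higher and the other 14 were not called, with a median log2 fold change of 0.55. The peptide transporter genes TAP1 and TAP2 rose by 1.63 and 1.03, NLRC5, the transactivator of the MHC class I genes, by 1.62, and CD274, which encodes PD-L1, by 1.64 on the log2 scale. CD274 had 1.58, 2.24 and 1.57 CPM with GFP and 9.60, 7.38 and 3.32 CPM with ΔGS. HLA-B (1.99), HLA-F (2.05) and the immunoproteasome subunit PSMB8 (1.12) were called higher. B2M, the shared light chain, passed the adjusted p but not the fold threshold, at 228, 302 and 287 CPM with GFP and 402, 446 and 381 CPM with ΔGS (log2 fold change 0.58, adjusted p = 0.0141, edgeR). The counts of genes in the MHC region are uncertain, because transcripts of alternative haplotypes in Ensembl 96 were not matched to the annotation used here. The motif above occurred in the promoters of 12 of 17 members with a promoter in the table (70.6%).

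Genes of the amino acid response formed the other large group of increased genes. Of 39 members tested, 27 were called higher and the other 12 were not called, and the median log2 fold change was 1.01 (quartiles 0.68 and 1.33). The summed level was 4701, 4844 and 5843 CPM with GFP and 8278, 7409 and 11120 CPM with ΔGS, without overlap. Experiment 3 held the highest level for 31 of the 39 members in the GFP libraries and for 34 in the ΔGS libraries, and the median log2 differences were 1.08, 0.72 and 1.21. The number called was 14 without the GFP library of experiment 1 or 3, 15 without the ΔGS library of experiment 2 and 18 without that of experiment 3, and 1 when the term for the experiment only set experiment 1 against the others.

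The members covered synthesis, transport and the transcription factors of the program. ASNS, which makes asparagine, went from 87.3, 93.2 and 192 CPM to 346, 303 and 535 CPM (log2 fold change 1.68, standard error 0.17, adjusted p = 0.0013, edgeR). The serine synthesis enzymes PHGDH, PSAT1 and PSPH rose by 1.05, 1.31 and 1.35 and the mitochondrial folate enzymes MTHFD2 and SHMT2 by 1.38 and 0.67 on the log2 scale. CTH and CBS of transsulfuration rose by 1.62 and 1.01. Among transporters, SLC6A9 (glycine, 1.91), SLC7A11 (cystine, 1.21), SLC1A5 (glutamine, 0.91), SLC3A2 (0.69) and SLC7A1 (0.62) were called higher, whereas SLC7A5 (0.26) and SLC38A2 (-0.12) were not called. CHAC1, which degrades glutathione, had 3.68, 5.42 and 8.34 CPM with GFP and 24.2, 24.9 and 98.6 CPM with ΔGS (log2 fold change 2.67, standard error 0.53, adjusted p = 0.0168, edgeR). The ΔGS library of experiment 3 stood far above the other two. STC2, a secreted glycoprotein, had 8.42, 12.2 and 13.4 CPM with GFP and 89.4, 53.6 and 106 CPM with ΔGS (log2 fold change 2.56). The transcription factors ATF4 (1.07), ATF3 (1.58), CEBPG (1.02) and the pseudokinase TRIB3 (1.29) were called higher, and DDIT3 (0.86, adjusted p = 0.0748, edgeR), CEBPB (1.01) and SESN2 (1.21) were not called.

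The C/EBP-ATF element TGATGCAAT occurred in the promoter window of 1 of 32 members (3.12%), against 0.173% of all tested genes with a promoter, and in 4 (1.32%) of the genes called higher and 0 of 213 called lower. The member was MTHFD1L, a mitochondrial folate enzyme with a log2 fold change of 0.84, and its match on the plus strand at chr6:150866347-150866376, is shown in capitals.
MTHFD1L: ccgccggctcTGATGCAATcgcgccgggcg

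Genes of neighbouring programs moved less. Of 20 cytosolic tRNA synthetases, GARS (1.18), CARS (1.09), WARS (0.94), SARS (0.86) and YARS (0.66) were called higher and VARS (-0.62) lower. The remaining 14 were not called, and the median was 0.22. GARS, which charges glycine, had 316, 324 and 508 CPM with GFP and 792, 676 and 1149 CPM with ΔGS. WARS is also interferon-inducible. Of 27 endoplasmic reticulum chaperones and genes of the unfolded protein response, XBP1 (0.93) and HERPUD1 (0.89) were called higher and the other 25 were not called, with a median of 0.02. XBP1 and HERPUD1 made up 7.41% of the list, against 2.81% of all genes tested called higher. HSPA5, the main chaperone of that compartment, was at 784, 745 and 903 CPM with GFP and 940, 737 and 1026 CPM with ΔGS (log2 fold change 0.14, adjusted p = 0.463, edgeR), values that overlapped.

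Among the same gene lists, cholesterol synthesis was the most uniform group of decreased genes. Of 24 members tested, 23 were called lower, each with all 3 ΔGS libraries below all 3 GFP libraries, and the exception was PMVK with a log2 fold change of 0.00. The median was -0.92 (quartiles -1.15 and -0.66), and the summed level fell from 4663, 5210 and 4857 CPM with GFP to 1731, 3296 and 2901 CPM with ΔGS. All 24 members were lowest in the ΔGS library of experiment 1, and the median log2 differences were -1.53, -0.57 and -0.72. The number called was 8 without the GFP library of experiment 1, 6 without the ΔGS library of experiment 1 or 2, 14 without that of experiment 3, and 3 in experiments 2 and 3 alone. It was 4 when the term for the experiment only set experiment 1 against the others, and 14 with only the GFP and ΔGS libraries fitted. The median stayed between -1.10 and -0.57 in all settings tried.

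HMGCS1, which makes HMG-CoA for the mevalonate pathway, had 506, 647 and 538 CPM with GFP and 100.1, 289 and 194 CPM with ΔGS (log2 fold change -1.70, standard error 0.28, adjusted p = 0.00777, edgeR). SQLE, which oxidises squalene, fell by 0.92 on the log2 scale, LSS by 1.38 and DHCR7, which completes cholesterol, by 1.23. The sterol sensor INSIG1 (-1.20) and SREBF2 (-0.66), the factor that drives the pathway, were called lower too. Of 13 fatty acid synthesis genes, 6 were called lower and the other 7 were not called, with a median of -0.72. SCD, the desaturase that makes oleate, had 1692, 2252 and 2249 CPM with GFP and 577, 1364 and 1123 CPM with ΔGS (log2 fold change -1.13, standard error 0.26, adjusted p = 0.0248, edgeR). ACSS2 (-1.19), LPIN1 (-1.03), ACLY (-0.81), FASN (-0.79) and FADS1 (-0.64) made up the rest of the called genes, and SREBF1 was not called (-0.72, adjusted p = 0.0537, edgeR). Without the GFP library of experiment 1, 3 fatty acid genes were called, and with experiment 1 set against the others 1. A sterol element, TCACNCCAC, occurred in the promoter window of 1 of 18 members of the cholesterol list (5.56%), which was SREBF2, and in 1.51% of all tested genes with a promoter.

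**Figure D3:**
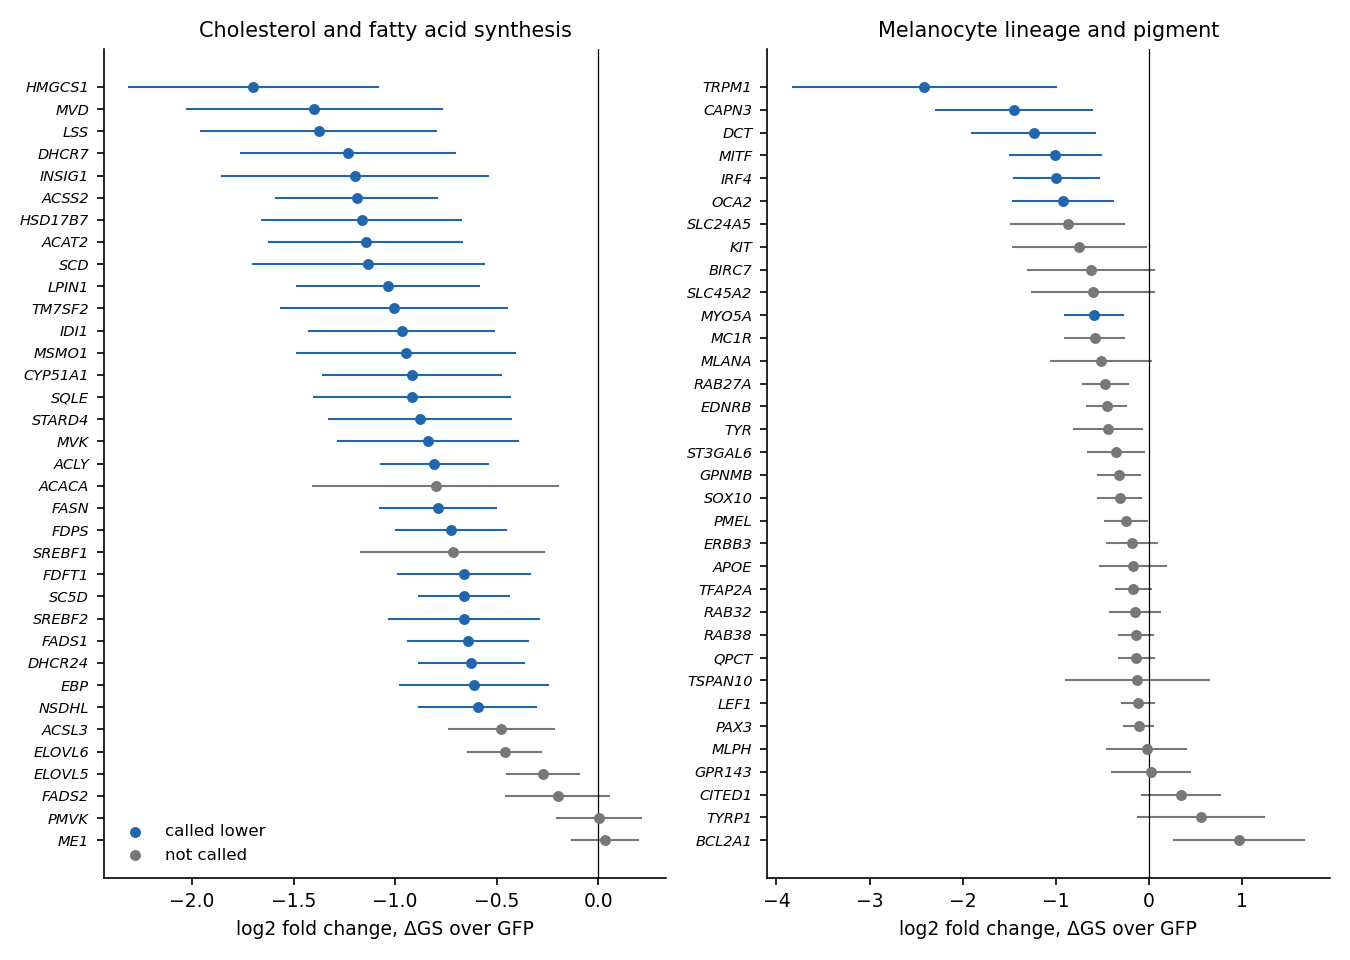
Log2 fold change of ΔGS TYRO3 over GFP (points) with its 95% interval (lines) for members of the cholesterol and fatty acid synthesis lists (left) and of the melanocyte list (right, on a wider axis). Blue members were called lower and grey ones were not called: 27 of the 35 members plotted were called on the left and 7 of 34 on the right.

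Melanocyte genes fell in part, with MITF among them. MITF, the transcription factor of the lineage, had 306, 306 and 337 CPM with GFP and 123, 208 and 156 CPM with ΔGS. All ΔGS libraries lay below the GFP libraries, and the log2 fold change was -1.01 (standard error 0.22, adjusted p = 0.0215, edgeR). Of the 35 genes of the melanocyte and pigment list, 8 were called lower and the other 27 were not called, with a median of -0.36 and medians by experiment of -0.54, -0.25 and -0.20. The called genes included the pigment enzyme DCT (-1.24), the pigment transporter OCA2 (-0.92), the channel gene TRPM1 (-2.41, at most 1.84 CPM), CAPN3 (-1.45), IRF4 (-0.99), MYO5A (-0.59) and MITF. The call for MITF was lost without any single library other than the GFP library of experiment 2, and the list then held 0 calls without the GFP library of experiment 1 or the ΔGS library of experiment 2 or 3, 1 without the ΔGS library of experiment 1 and 4 without the GFP library of experiment 3. With experiment 1 set against the others, the list held 0 calls. DCT had 334, 365 and 444 CPM with GFP and 95.7, 228 and 202 CPM with ΔGS. TYR (-0.44, adjusted p = 0.119, edgeR), MLANA (-0.52), PMEL (-0.25) and SOX10 (-0.32) were not called, and TYR, MLANA, PMEL and SOX10 overlapped between the groups. The M-box core CATGTGA, which MITF can bind, occurred in 8 of 29 promoters of the list (27.6%), in 8.45% of the genes called lower, in 4.95% of those called higher and in 3.48% of all tested genes with a promoter. TRPM1 is shown as an example, on the minus strand at chr15:31101764-31101793, with the match on the opposite strand in capitals.
TRPM1: ggcccaagtgcTCACATGctcctcatgggg

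Of 25 genes of the invasive, dedifferentiated melanoma state, 12 were called higher and the other 13 were not called, with a median of 0.62. AXL, described above, the nerve growth factor receptor NGFR (1.15), WNT5A (1.68), SOX9 (1.14), FOSL1 (1.10), INHBA (1.79) and NT5E (0.62) were among them, together with THBS1 (1.07), CTGF (1.16), CYR61 (0.91) and ANKRD1 (1.53), which are known targets of YAP and TEAD. THBS1, which encodes the matrix protein thrombospondin 1, had 622, 260 and 318 CPM with GFP and 1481, 596 and 542 CPM with ΔGS (log2 fold change 1.07, standard error 0.13, adjusted p = 0.00202, edgeR). It was higher in each experiment, and the groups overlapped because the GFP level of experiment 1 exceeded the ΔGS levels of the others. WNT5A and SOX9 were low, at most 1.43 and 3.32 CPM. Of the 12 called members, 6 did not overlap between the groups. The summed level of the list was 7241, 6296 and 5870 CPM with GFP and 9090, 6830 and 4844 CPM with ΔGS. That sum was lower with ΔGS in experiment 3. Without the GFP library of experiment 1 or the ΔGS library of experiment 2, 6 members of the list were called. In experiments 2 and 3 alone 2 were called, and with experiment 1 set against the others 1. FN1 (-0.12), ZEB1 (0.02) and JUN (-0.01) were not called.

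STAT3 had 161, 179 and 156 CPM with GFP and 143, 149 and 111 CPM with ΔGS, without overlap, and was not called (log2 fold change -0.31, standard error 0.09, adjusted p = 0.051, edgeR). Of 19 genes of the STAT3 and SOCS list, 7 were called higher and the other 12 were not called, with a median of 0.37. The feedback inhibitor SOCS3 had 17.9, 27.5 and 18.1 CPM with GFP and 63.2, 47.0 and 43.2 CPM with ΔGS (log2 fold change 1.21, standard error 0.16, adjusted p = 0.00246, edgeR), and SOCS1 (1.88, at most 1.55 CPM), CEBPD (1.32), JUNB (0.88), BCL3 (0.74), BCL2L1 (0.71) and IL6ST (0.67) were called as well. Without the GFP or the ΔGS library of experiment 1 or of experiment 3, 3 or 4 genes of the list were called. Of 23 ERK feedback and output genes, 4 were called higher and the other 19 were not called, with a median of 0.10. CCND1, which encodes cyclin D1, had 534, 476 and 444 CPM with GFP and 1021, 767 and 741 CPM with ΔGS (log2 fold change 0.78, standard error 0.12, adjusted p = 0.00603, edgeR), and EGR1 (1.23), FOSL1 (1.10) and DUSP5 (0.80) were the others. Without any single library other than the GFP library of experiment 2, 1 or 2 of them were called. MYC was at 27.6, 35.7 and 41.0 CPM with GFP and 25.4, 29.1 and 42.0 CPM with ΔGS, and was not called (log2 fold change -0.15, adjusted p = 0.504, edgeR).

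Of 23 NRF2 and glutathione genes, SRXN1 (1.41), SLC7A11 (1.21), ABCC3 (1.17), TXNRD1 (0.99) and GCLM (0.80) were called higher and the other 18 were not called, with a median of 0.25. The lists that follow had few calls, to be read against the 2.81% of all tested genes called higher and the 1.88% called lower. The hypoxia and glycolysis list had VEGFA (1.27) and NDRG1 (0.72) called higher and ALDOC (-0.91) lower of 29, with a median of -0.16. Among 25 p53 targets, PMAIP1 (0.94) and FAS (0.62) were called higher and CCNG1 (-0.68) and TP53INP1 (-0.66) lower, with a median of 0.08. Of 16 heat shock genes, HSPA1B was called lower and the other 15 were not called, with a median of -0.32. HSP90AA1 passed the adjusted p but not the fold threshold (log2 fold change -0.52, adjusted p = 0.018, edgeR). Of 28 lysosome and autophagy genes, NEU1 (-0.62) was called lower, and the median was 0.00. Among 26 collagen, integrin and matrix genes, COL6A3 (1.25), THBS1 and ITGA2 (0.72) were called higher and ITGA4 (-0.59) lower, with a median of 0.06. By edgeR, 0 of 24 S phase and 0 of 26 G2 and M phase genes were called, with medians of 0.05 and -0.11. At an unadjusted p under 0.05, 5 and 6 of them passed, and DESeq2 and limma also called 0. Without the GFP library of experiment 1, 0 genes of the endoplasmic reticulum, p53, heat shock and lysosome lists were called, 1 lower of the hypoxia list and 2 higher of the matrix list. The matrix list had 1 to 3 genes called higher whichever of the 6 libraries was left out. Among the markers of other cell types, ITGAM (2.23, at most 0.698 CPM) and KDR (0.66) were called higher and LUM (-0.61) lower, and their part in the results was not tested.

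**Figure D4:**
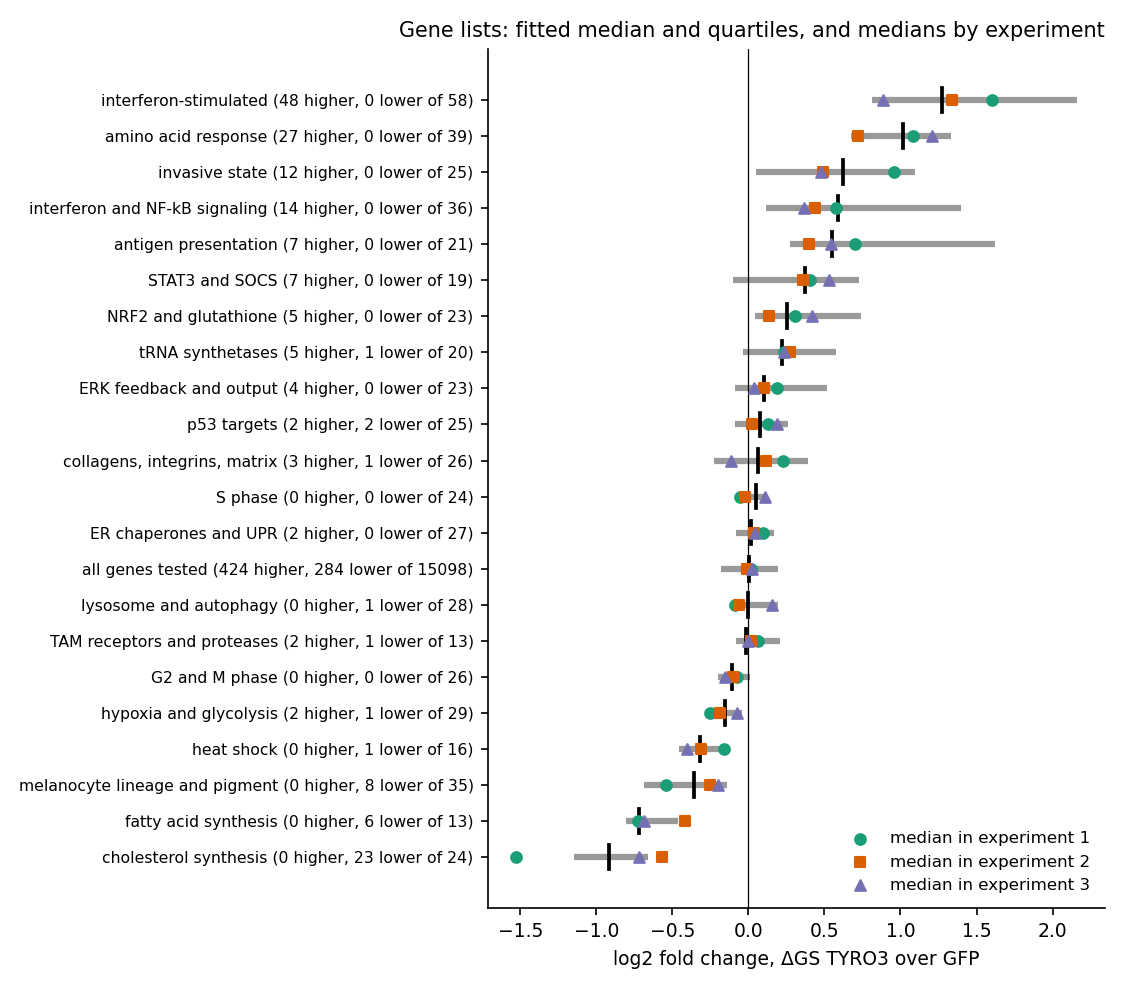
For 21 gene lists and for all genes tested, the black tick is the median log2 fold change of ΔGS TYRO3 over GFP, the grey bar runs between the quartiles, and the symbols are the medians of the log2 differences within each experiment. The interferon-stimulated list has the highest median (1.28) and the cholesterol list the lowest (-0.92), and both keep their direction in each experiment.

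Between ΔGS and the other TYRO3 variants, no gene was called. By edgeR, 0 genes were called between ΔGS and WT TYRO3 (0.0% of those tested), with 361 at an unadjusted p under 0.05 and a smallest adjusted p of 0.935. DESeq2 called 5 genes in that comparison (AC048338.1, AC025283.2, AC116366.3, AC107075.1 and TSPY6P) and limma 0. With ΔGS, AC048338.1 was at 1.57, 0 and 0 CPM, TSPY6P at 0, 0 and 1.27 CPM and AC107075.1 at 0, 0 and 5.47 CPM. These genes were at 0 CPM in every WT library. Between ΔGS and ΔADAM TYRO3, 0 genes were called by edgeR (0.0%), with 216 at an unadjusted p under 0.05 and a smallest adjusted p of 0.9998. DESeq2 called AC107075.1, which was at 0 CPM with ΔADAM too, and limma 0. TYRO3 itself was at 3064, 1791 and 1369 CPM with WT and 3284, 1215 and 1181 CPM with ΔADAM TYRO3. Its log2 fold change of ΔGS over WT was 0.07 with a 95% interval from -0.42 to 0.56, and over ΔADAM 0.29 with an interval from -0.20 to 0.78.

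The width of the intervals, which are approximate, sets what these comparisons can show. For 249 of the 424 genes called higher with ΔGS, the 95% interval of ΔGS over WT lay within a 1.5-fold difference in either direction, as it did for 150 of the 284 called lower. Against ΔADAM TYRO3 the numbers were 285 and 208. For the remaining genes the interval reached past a 1.5-fold difference. The interval of ΔGS over WT left out 0 for 15 of the higher and 19 of the lower genes, and that of ΔGS over ΔADAM for 12 and 6, among them HSPA1B with -2.32 to -0.10 over WT, and none of these passed the adjustment over all genes (edgeR). These genes were selected on the ΔGS libraries, so that a median of ΔGS over WT slightly away from 0, here 0.12 for the higher and -0.16 for the lower genes, is a description. Over ΔADAM the medians were 0.01 and -0.04. The 3 comparisons with GFP share the control libraries, and the median log2 fold change over GFP of the interferon-stimulated list was 1.28 with ΔGS, 1.22 with WT and 1.28 with ΔADAM. For the amino acid response the medians were 1.01, 0.88 and 0.97, and for cholesterol synthesis -0.92, -0.95 and -0.90, in the same order. OAS2 differed between ΔGS and WT by 0.08 on the log2 scale (95% interval -0.35 to 0.51) and between ΔGS and ΔADAM by -0.11 (-0.54 to 0.31), and HMGCS1 by -0.07 (-0.66 to 0.53) and -0.11 (-0.70 to 0.48). SOCS3 was higher with ΔGS than with ΔADAM by 0.54 (95% interval 0.22 to 0.86), which did not pass the adjustment over all genes (adjusted p = 0.9998, edgeR).

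**Figure D5:**
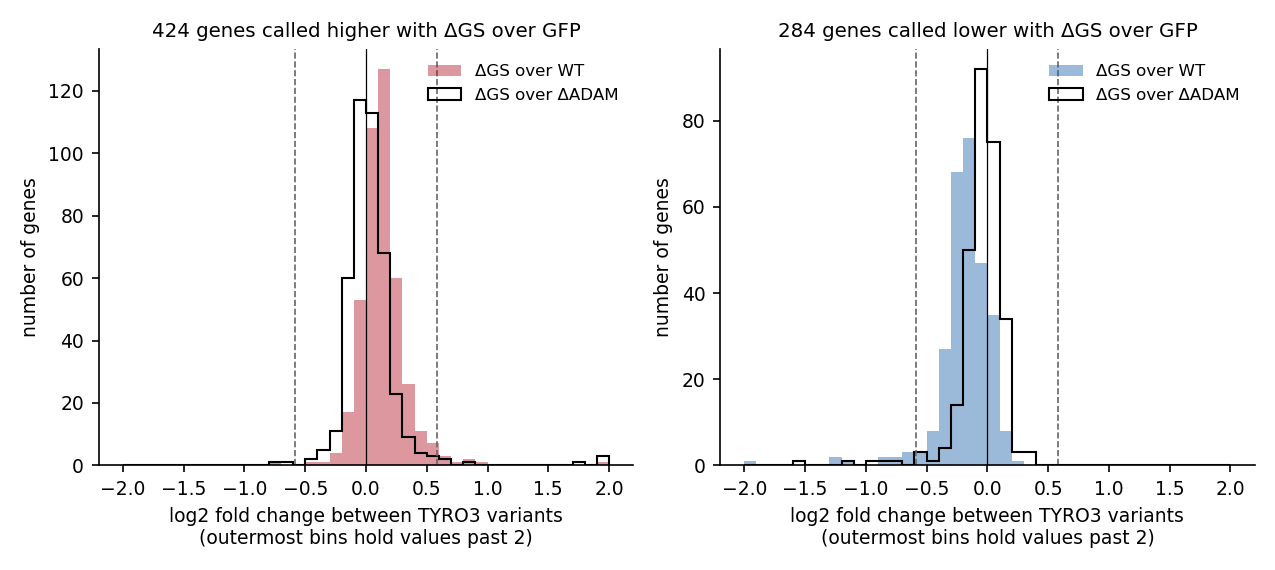
Numbers of genes by their log2 fold change of ΔGS over WT TYRO3 (filled) and of ΔGS over ΔADAM TYRO3 (line), for the 424 genes called higher (left) and the 284 called lower (right) with ΔGS over GFP. Dashed lines mark a 1.5-fold difference, and most genes lie between them in both panels.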

How the data were processed

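RNA sequencing libraries of WM-266-4 melanoma cells were analysed. Per the labels and the study's methods, the authors processed reads with bcl2fastq, FastQC 0.11.9 and Trimmomatic 0.33 and quantified transcripts with kallisto 0.46.0 against Ensembl 96. The deposited files hold estimated counts and TPM for 188753 transcripts per library. Estimated counts assign reads shared by similar transcripts in part, so that near-identical genes are uncertain.

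Here, transcripts were joined by identifier without version to GENCODE 29 (169797 matched, 18956 did not, 97.4 to 97.5% of counts matched in the 6 libraries) and estimated counts were summed per gene and rounded. Genes were filtered with filterByExpr (minimum count 10, total 15), scaled by TMM and tested with edgeR 4.0.16 (quasi-likelihood, R 4.3.3) over all 12 libraries with group and experiment number as terms. Calls required a change of more than 1.5-fold and a Benjamini-Hochberg adjusted p no higher than 0.05. The experiment numbers come from the sample titles. Deviations from the group means correlated at 0.0824 to 0.264 between the GFP and ΔGS libraries of 1 experiment. Those of different experiments correlated at 0.0533 at most, but deviations within a group cancel out, which lowers such values with or without pairing. Within an experiment, TYRO3 variants correlated with each other at 0.325 to 0.53, and GFP with any variant at 0.0384 to 0.264. The fitted spread is shared by all groups, and whether it holds for the GFP libraries was not tested. Log2 differences within an experiment used CPM + 0.5. Alternatives were DESeq2 1.42.0, limma 3.58.1 on log2(TPM + 1), other scalings and filters, other experiment terms and leaving out each library. The named genes were the 15 protein-coding genes called with the largest change in each direction, without overlap and with a mean of at least 5 CPM, and list members. Genes named beside a count of 5 or fewer were named for that reason. The comparison, gene lists and members were chosen with earlier results of these data known. The fitting code was tested on simulated data. Promoter sequences are those of RefSeq (GRCh38.p14), available for 10989 of 15089 tested symbols. Some genes that count in the totals are not reported here by name.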

Additional observations from a re-analysis of the deposited data

How the results depend on the processing

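The counts of 424 genes higher and 284 lower with ΔGS TYRO3 depended on the replicate block, the term that pairs libraries by experiment. Without it they were 4 and 0, with experiment 1 set against the other 2, the batch named in the methods of the study, they were 42 and 27, and in experiments 2 and 3 alone 147 and 42. With only the GFP and ΔGS libraries fitted, 185 were lower. Limma on log2 TPM called 272 and 146, and without a fold threshold 682 and 670 passed. Leaving out 1 library at a time gave 206 to 450 higher and 63 to 314 lower. Between ΔGS and WT TYRO3, where 0 were called, DESeq2 called 5 and the fit without a filter called 1. Between ΔGS and ΔADAM, where 0 were called, DESeq2 called 1 and leaving out 1 library gave 0 to 1. The cause of these differences was not tested. The log2 fold change of TYRO3 stayed between 4.90 and 5.50 and was called in every setting run. Among the named genes that were compared across settings, the sign changed for 4, which were not called: MYC was 0.016 without GFP replicate 2 (range over left-out libraries -0.245 to 0.016), PDGFRA was 0.034 without GFP replicate 1 (-0.429 to 0.034), CLDN4 was -0.024 without GFP replicate 2 (-0.024 to 0.426), and VWF was 0.072 by limma on log2 TPM. Depth limits the GFP library of experiment 1 most, at 4008293 counts.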
